A study of Mus musculus with 13 samples.

Results

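The platelet-derived growth factor (PDGF) family was followed here through its 4 ligand genes, Pdgfa, Pdgfb, Pdgfc and Pdgfd, and its 2 receptor genes, Pdgfra and Pdgfrb, in the mouse submandibular gland. The members were chosen by gene symbol, without use of their values, and all 6 were found among the 23364 genes listed in the deposited files. All 6 also passed the filter of at least 1 FPKM (fragments per kilobase of gene, scaled to a fixed number of reads per sample) in at least 1 sample, which left 14650 genes for testing.

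RNA of whole submandibular glands from C57BL/6 mice gave 13 sequenced samples, 3 of them from E14.5 and a pair from every other age, where E stands for embryonic and P for postnatal day. The other ages were E16.5 and E18.5 before birth, and P5, 4wk and 12wk after it. By the labels the 7 samples from before birth are the embryo stage, the 2 P5 samples the neonatal stage and the 4 older samples the adult stage. Per the study's methods, glands of 3 animals went into each pool at E14.5 and of 2 animals into each pool at E16.5 and E18.5. The sex of the embryos and P5 pups was not ascertained, and the 4wk and 12wk animals were male, so that sex and age cannot be fully told apart. All animals were wild type and untreated as far as the labels say.

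PDGF ligands are secreted as dimers that bind receptor tyrosine kinases on neighboring cells. PDGF-A and PDGF-C act mainly through PDGF receptor alpha, which marks mesenchymal and fibroblast cells, and PDGF-B and PDGF-D mainly through PDGF receptor beta, which marks pericytes and other perivascular cells. In branching organs such as the salivary gland, ligand made by epithelium is received by the surrounding mesenchyme, which in turn produces factors such as Fgf10 that act on the epithelium.

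On the mm9 assembly, Pdgfa is at chromosome 5, 139451968 to 139473324, on the minus strand. Pdgfb is at chromosome 15, 79826330 to 79845238, also on the minus strand. Pdgfc spans chromosome 3, 80840338 to 81017962, and Pdgfd spans chromosome 9, 6168612 to 6378843, both on the plus strand. Pdgfra is at chromosome 5, 75548316 to 75594229, on the plus strand. The values below count reads over each whole gene, and transcript isoforms were not separated.

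The 250 bases upstream of the annotated start are shown for Pdgfra and Pdgfc, whose RNA levels declined side by side, and for Pdgfd, whose level moved the opposite way. They are RefSeq sequences of a later assembly, GRCm38.p6, and were matched by symbol, with motifs in capitals. Each window was searched on both strands for TATAAA, the TATA box. The second motif searched, also on both strands, was the promoter element CCAAT. As the third motif, the GC box was taken as GGGCGG on either strand.
Pdgfra, chr5:75152001-75152250, plus strand: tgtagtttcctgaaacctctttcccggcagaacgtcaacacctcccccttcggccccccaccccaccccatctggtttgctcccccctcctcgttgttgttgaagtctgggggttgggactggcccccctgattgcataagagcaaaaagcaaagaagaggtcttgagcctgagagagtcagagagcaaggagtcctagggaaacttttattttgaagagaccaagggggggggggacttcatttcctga
Pdgfc, chr3:81036166-81036415, plus strand: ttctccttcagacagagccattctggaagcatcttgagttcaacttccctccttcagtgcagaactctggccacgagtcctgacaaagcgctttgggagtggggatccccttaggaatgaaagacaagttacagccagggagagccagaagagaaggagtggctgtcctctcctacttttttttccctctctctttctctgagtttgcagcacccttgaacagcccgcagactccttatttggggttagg
Pdgfd, chr9:6168236-6168485, plus strand: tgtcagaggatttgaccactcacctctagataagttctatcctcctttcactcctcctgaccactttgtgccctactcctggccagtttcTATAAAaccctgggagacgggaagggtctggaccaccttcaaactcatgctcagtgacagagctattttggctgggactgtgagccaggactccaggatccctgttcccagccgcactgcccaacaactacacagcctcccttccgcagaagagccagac
The only match in these 3 windows was the sequence TATAAA in that of Pdgfd, with its first base 160 bases before the start. Whether this match acts as a TATA box was not tested. Among 32851 windows of the same length in the table, 12.4% hold the first motif, 33.8% the second and 32.7% the third. The GC content was 54.4% for Pdgfra, 50.8% for Pdgfc and 53.6% for Pdgfd, beside a median of 52.4% over all windows. Of the members, 4 were in that table.

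The reads on genes ranged from 5817293 to 48314162 per sample, and both 4wk samples were shallower than every other sample, of which the lowest had 17345305. The fewest reads behind any member value were 55, for Pdgfb in 4wk replicate 1. The 10 most abundant genes took 5.93% to 16.501% of the summed FPKM in embryo samples and 48.1% to 61.1% in adult samples. In deposited FPKM, the median log2 change over all tested genes was -0.25 from embryo to neonatal, -0.53 from neonatal to adult and -0.75 from embryo to adult. After each sample was divided by a median-of-ratios factor, which sets the typical gene level across samples, these medians were -0.03, -0.05 and -0.08. Levels, orders of samples and changes given below are in deposited FPKM unless they are said to be rescaled. The epithelial marker Epcam was between 101 and 307 FPKM in all 13 samples. The acinar markers Aqp5 and Bhlha15 reached at most 9.13 and 4.97 FPKM at E14.5, and were at least 94.4 and 35.8 FPKM in every later sample. The other acinar markers listed did not share this pattern. Muc19 and Smgc were at 0.0252 and 0.154 FPKM in 12wk replicate 1, within their E14.5 ranges. Amy1 was at 0.382 FPKM or less at E16.5 and E18.5, against 1.28 FPKM or more at E14.5. E14.5 replicate 1 stood apart from the other E14.5 samples, with a Pearson r of log2(FPKM + 1) across genes of 0.970 and 0.974 to them, against 0.996 between the other pair. The lowest such r between samples of the same age was 0.959, for the 4wk pair.

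**Figure D1:**
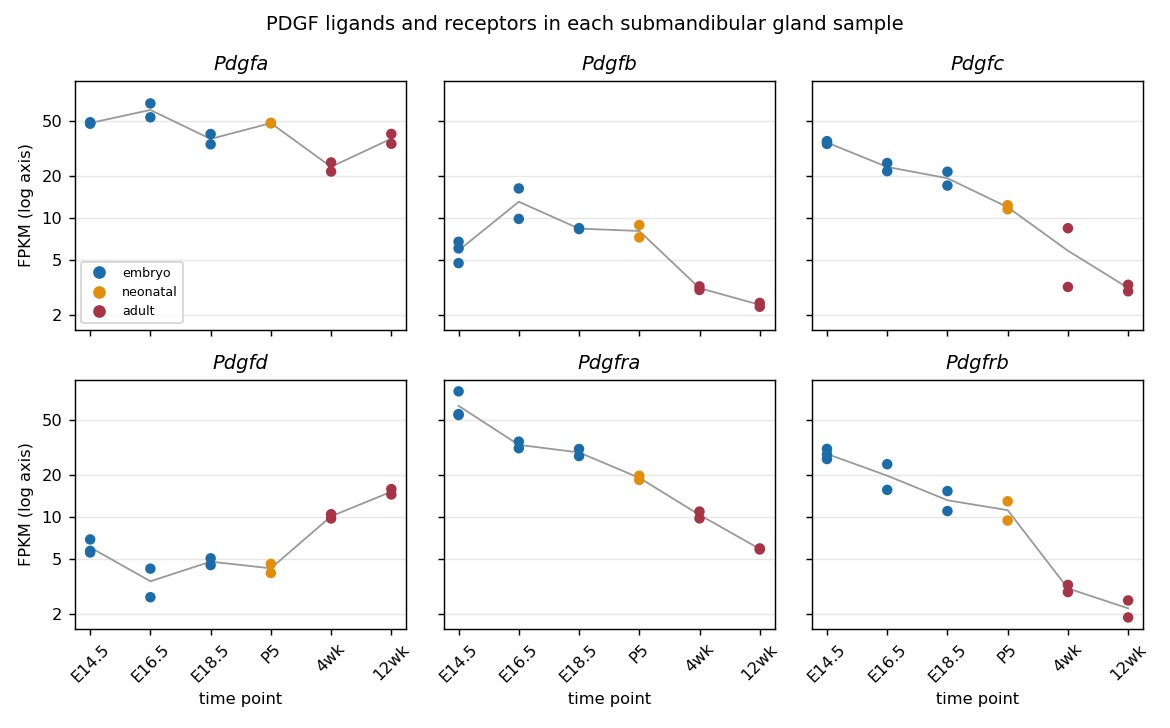
FPKM of each PDGF gene on a shared log axis, with 1 point per sample, colored by stage, and a grey line through the mean of each time point. Pdgfc, Pdgfra and Pdgfrb have their highest values at E14.5 and their lowest mean at 12wk, whereas Pdgfd is highest at 12wk.

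Pdgfa encodes the ligand that signals through PDGF receptor alpha and was the most abundant ligand RNA at every time point. In the embryo, Pdgfa was at 48.6, 47.9 and 47.5 FPKM in the E14.5 samples, 52.8 and 66.4 FPKM in the E16.5 samples and 40.04 and 33.8 FPKM in the E18.5 samples. After birth, Pdgfa was at 48.2 and 47.7 FPKM in the P5 samples, 21.5 and 25.0 FPKM in the 4wk samples and 40.1 and 34.1 FPKM in the 12wk samples. The 4wk samples were the lowest of the series, and the 12wk samples lay within the embryo range. From embryo to adult the log2 change was -0.67 ± 0.19 (SE, limma adjusted p = 0.00490), below the fold threshold of 1 in size, and its sign turned after rescaling, to 0.25 ± 0.17 (limma adjusted p = 0.222). Relative to the other tested genes, Pdgfa stayed between the 85.9th and 91.7th percentile of time point means throughout.

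Pdgfb encodes the ligand of both receptors that endothelial cells use to recruit pericytes. In the embryo, Pdgfb was at 4.72, 6.73 and 6.03 FPKM in the E14.5 samples, 9.82 and 16.3 FPKM in the E16.5 samples and 8.43 and 8.30 FPKM in the E18.5 samples. After birth, Pdgfb was at 8.87 and 7.22 FPKM in the P5 samples, 3.21 and 3.03 FPKM in the 4wk samples and 2.45 and 2.30 FPKM in the 12wk samples. The 4 adult samples were below all others, though after rescaling they overlapped the embryo samples, and E16.5 replicate 2 was the highest. From embryo to adult the log2 change was -1.28 ± 0.24 (SE, limma adjusted p = 0.000237), which passed the thresholds, and after rescaling it was -0.52 ± 0.23 (limma adjusted p = 0.0645), below the fold threshold.

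Pdgfc encodes a ligand of PDGF receptor alpha that needs proteolytic removal of its CUB domain. In the embryo, Pdgfc was at 34.7, 34.0 and 35.6 FPKM in the E14.5 samples, 21.7 and 24.8 FPKM in the E16.5 samples and 21.5 and 17.1 FPKM in the E18.5 samples. After birth, Pdgfc was at 11.5 and 12.3 FPKM in the P5 samples, 8.42 and 3.18 FPKM in the 4wk samples and 3.30 and 2.96 FPKM in the 12wk samples. Embryo, neonatal and adult samples did not overlap in deposited FPKM, and 4wk replicate 1 stood above the other 3 adult samples. After rescaling, 4wk replicate 1 was at 11.8, between the P5 samples at 10.6 and 12.0, while the embryo samples still lay above all later ones. From embryo to adult Pdgfc fell by 2.41 ± 0.26 on the log2 scale (SE, limma adjusted p = 1.51e-06), and it fell by 1.59 ± 0.23 after rescaling (limma adjusted p = 5.88e-05).

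The high value of Pdgfc in 4wk replicate 1 rested on 172 reads, against 89 reads in 4wk replicate 2, which had more reads in all. Of the 10 fibroblast and mesenchyme markers, 9 were also higher in this sample than in 4wk replicate 2 and 1 was lower, Twist2, which was listed at 0. Their sum was 534 against 475 FPKM. Of 10 endothelial markers 9 were higher, with sums of 57.6 against 46.3 FPKM, and of 7 skeletal muscle markers 4 were higher and 0 lower, with sums of 28.7 against 1.52 FPKM. These counts and sums were not rescaled. The median-of-ratios factor was 0.714 for 4wk replicate 1 and 0.617 for 4wk replicate 2, so a typical gene was also higher in replicate 1. Pdgfra did not share this order, with 9.75 FPKM in replicate 1 and 10.9 FPKM in replicate 2. The part of these markers in the Pdgfc value was not tested. Without 4wk replicate 1 the log2 change of Pdgfc from embryo to adult was -2.71.

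Pdgfd encodes a ligand of PDGF receptor beta, likewise activated by proteolysis, and was the only member called higher in the adult gland. In the embryo, Pdgfd was at 6.88, 5.69 and 5.54 FPKM in the E14.5 samples, 4.24 and 2.64 FPKM in the E16.5 samples and 4.50 and 5.03 FPKM in the E18.5 samples. After birth, Pdgfd was at 3.94 and 4.58 FPKM in the P5 samples, 10.4 and 9.73 FPKM in the 4wk samples and 15.8 and 14.48 FPKM in the 12wk samples. Every adult sample was above every earlier sample. From embryo to adult Pdgfd rose by 1.21 ± 0.20 on the log2 scale (SE, limma adjusted p = 7.99e-05), and by 2.05 ± 0.20 after rescaling (limma adjusted p = 1.51e-06). Its mean moved from the 35.6th percentile of tested genes at P5 to the 70.4th at 4wk and the 79.4th at 12wk.

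Pdgfra, the receptor of mesenchyme, was the most abundant member at E14.5. In the embryo, Pdgfra was at 79.8, 53.9 and 54.8 FPKM in the E14.5 samples, 31.1 and 34.7 FPKM in the E16.5 samples and 30.7 and 27.3 FPKM in the E18.5 samples. After birth, Pdgfra was at 18.4 and 19.7 FPKM in the P5 samples, 9.75 and 10.9 FPKM in the 4wk samples and 5.93 and 5.83 FPKM in the 12wk samples. The 3 stages did not overlap in deposited FPKM, whereas after rescaling 4wk replicate 2 at 17.7 lay above P5 replicate 1 at 16.9. The time point means declined throughout, except that E16.5 and E18.5 lay close together, with a log2 change of -0.18 ± 0.18 between them (SE, limma adjusted p = 0.580). From embryo to adult Pdgfra fell by 2.27 ± 0.28 on the log2 scale (SE, limma adjusted p = 5.20e-06), and it fell by 1.39 ± 0.26 after rescaling (limma adjusted p = 0.000464).

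The highest Pdgfra value, in E14.5 replicate 1, came with other differences of that library. Of 10 fibroblast and mesenchyme markers, 5 were above both other E14.5 samples, such as Twist1 at 37.1 against 19.6 and 19.9 FPKM, and 3 were below both, such as Dpt at 16.6 against 32.4 and 22.2 FPKM, with a list sum of 2712 against 2570.1 and 2572 FPKM. All 10 epithelial markers were below both other samples, with a sum of 386 against 662 and 690.1 FPKM. Of 7 skeletal muscle markers 6 were above both, with a sum of 495 against 229 and 169.8 FPKM. The part of these markers in the Pdgfra value was not tested. Without this library the log2 change of Pdgfra from embryo to adult was -2.12, and 5 members were called as in the whole set.

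Pdgfrb, the receptor of perivascular cells, had the largest log2 decrease of the members from embryo to adult on both scales. Its gene is at mm9 chromosome 18, 61204804 to 61244715, on the plus strand. In the embryo, Pdgfrb was at 26.0, 28.2 and 30.8 FPKM in the E14.5 samples, 15.6 and 23.9 FPKM in the E16.5 samples and 15.3 and 11.001 FPKM in the E18.5 samples. After birth, Pdgfrb was at 12.9 and 9.40 FPKM in the P5 samples, 3.24 and 2.88 FPKM in the 4wk samples and 2.51 and 1.89 FPKM in the 12wk samples. The adult samples were below all others, while the P5 samples overlapped those of E18.5. From embryo to adult Pdgfrb fell by 2.57 ± 0.25 on the log2 scale (SE, limma adjusted p = 7.04e-07), and it fell by 1.79 ± 0.22 after rescaling (limma adjusted p = 1.33e-05). In whole glands, fewer cells of a type and less RNA per cell cannot be told apart, for this receptor as for the other members.

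In the contrast of adult with embryo, 4 members were called lower (Pdgfb, Pdgfc, Pdgfra and Pdgfrb) and 1 higher (Pdgfd), at a log2 change of at least 1 in size and a limma adjusted p below 0.1. Over all tested genes, 38.0% were called lower and 5.58% higher. After rescaling, 3 members were lower (Pdgfc, Pdgfra and Pdgfrb) and 1 higher, beside 14.7% and 13.8% of all genes. The samples of the stages did not overlap for the same 5 members, 4 lower and 1 higher, as was so for 54.1% of genes in the lower and 6.29% in the higher direction. After rescaling they did not overlap for 3 lower members, without Pdgfb, and 1 higher member, beside 24.0% and 20.1% of genes. Relative to the median of all genes, the log2 change was -1.82 for Pdgfrb, -1.66 for Pdgfc, -1.52 for Pdgfra, -0.53 for Pdgfb, 0.08 for Pdgfa and 1.96 for Pdgfd.

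**Figure D2:**
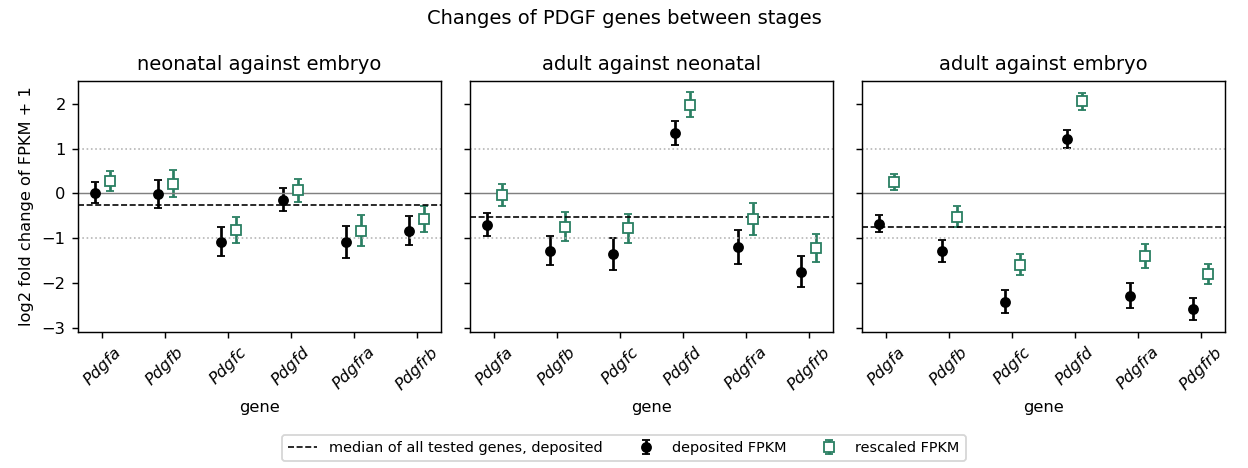
Log2 fold change of FPKM + 1 for the 6 members in 3 stage contrasts, as filled circles for deposited FPKM and open squares for rescaled FPKM, with SE bars. The dashed line is the median change of all tested genes in deposited FPKM and dotted lines mark the fold threshold. In adult against embryo, Pdgfd lies above the upper threshold and Pdgfc, Pdgfra and Pdgfrb below the lower on both scales, and Pdgfa changes sign.

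Between embryo and P5, Pdgfc fell by 1.07 ± 0.33 and Pdgfra fell by 1.09 ± 0.35 on the log2 scale (SE, limma adjusted p = 0.0280 and 0.0357). These 2 members were called lower and 0 higher, beside 8.14% and 4.14% of all genes. After rescaling the changes were -0.81 and -0.83, and 0 members were called, beside 3.90% lower and 5.55% higher of all genes. The P5 samples of both genes lay below all embryo samples, as did those of 33.8% of genes, with 11.5% above. The same 2 members lay below after rescaling and 0 above, beside 21.2% and 20.1% of genes. The count was 0 when either P5 sample was left out. It was 1 without E14.5 replicate 1, where Pdgfra was at -0.93, and 1 without E14.5 replicate 3, where Pdgfc was at -0.999.

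Between P5 and the adult stage, 4 members fell and 1 rose, beside 20.8% of genes called lower and 2.31% called higher. Pdgfrb fell by 1.74 ± 0.35 (SE, limma adjusted p = 0.00165), Pdgfc by 1.34, Pdgfb by 1.27 and Pdgfra by 1.19, while Pdgfd rose by 1.35 ± 0.27 (SE, limma adjusted p = 0.00189), all on the log2 scale. After rescaling, 1 member was called lower, Pdgfrb at -1.21 ± 0.31 (limma adjusted p = 0.0110), and 1 higher, Pdgfd at 1.98 ± 0.27 (limma adjusted p = 0.000243), beside 8.53% and 6.05% of all genes. Adult samples lay below the P5 samples for 5 members, Pdgfa included, and above them for Pdgfd, as they did for 63.4% and 6.79% of genes. After rescaling they lay below for 2 members, Pdgfb and Pdgfrb, and above for Pdgfd, beside 30.1% and 25.7% of genes. Without P5 replicate 1 or P5 replicate 2, Pdgfra lost its call, at -1.23 (limma adjusted p = 0.104) and -1.14 (limma adjusted p = 0.115). The 3 stage contrasts share samples and are not independent of each other.

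Among successive time points, most member calls lay between P5 and 4wk, where the median log2 change over all tested genes was -0.53. Pdgfrb fell by 1.57 ± 0.22, Pdgfb by 1.13 ± 0.22, Pdgfc by 1.04 ± 0.28 and Pdgfa by 1.02 ± 0.14, and Pdgfd rose by 1.08 ± 0.18, all on the log2 scale with SE. These 4 lower and 1 higher calls stood beside 22.1% and 2.19% of all genes. Pdgfra was at -0.83 ± 0.18 (SE, limma adjusted p = 0.00229), short of the fold threshold, and at -0.20 after rescaling. The largest step of Pdgfra was from E14.5 to E16.5, at -0.89, or -0.88 after rescaling. After rescaling, Pdgfrb at -1.03 and Pdgfd at 1.69 remained past the thresholds, beside 8.72% lower and 6.37% higher of all genes. Pdgfb at -0.59, Pdgfc at -0.46 and Pdgfa at -0.36 were short of them, and their largest rescaled steps lay between other ages.

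Several of these calls lay close to the fold threshold. Without 4wk replicate 2 the Pdgfc change was -0.46, and without 4wk replicate 1 it was -1.63. Pdgfa was at -0.91 without 4wk replicate 1, Pdgfc at -0.996 without P5 replicate 2, and Pdgfb at -0.996 and Pdgfd at 0.99 without P5 replicate 1, each then short of the threshold.

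From E14.5 to E16.5 1 member was called, Pdgfb, which rose by 1.01 ± 0.20 on the log2 scale (SE, limma adjusted p = 0.00627), beside 4.17% of all genes called higher and 0.983% lower. After rescaling the change was 0.98, without E14.5 replicate 1 it was 0.89 and without E16.5 replicate 2 it was 0.68, each below the fold threshold, and 0 members were called on rescaled FPKM, beside 3.64% of genes higher and 0.751% lower. Pdgfra was at -0.89 ± 0.16 (SE, limma adjusted p = 0.00419) and Pdgfd at -0.68 ± 0.17 (SE, limma adjusted p = 0.0181), both short of the fold threshold. In the same contrast 7 of 10 epithelial, 4 of 5 acinar, 3 of 5 smooth muscle and myoepithelium, and 3 of 7 skeletal muscle markers were called higher, as were 1 of 9 pericyte and 1 of 5 platelet markers. No marker list had a gene called lower, and 0 of 10 fibroblast and mesenchyme and 0 of 10 endothelial markers were called. The summed skeletal muscle markers were 835 and 1127 FPKM in the E16.5 samples, against 169.8 to 495 FPKM at E14.5. The part of these cell types in the member changes was not tested.

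No member passed the thresholds from E16.5 to E18.5, from E18.5 to P5, or from 4wk to 12wk, where 1.09%, 2.07% and 2.68% of all genes were called higher and 1.85%, 2.97% and 2.48% lower. After rescaling 0 members were called in these 3 contrasts, where the shares were 1.32%, 2.37% and 3.62% higher and 1.17%, 1.79% and 3.24% lower. Pdgfa was at -0.67 ± 0.14 from E16.5 to E18.5 (SE, limma adjusted p = 0.0160), 0.37 ± 0.14 from E18.5 to P5 (limma adjusted p = 0.0949) and 0.65 ± 0.14 from 4wk to 12wk (limma adjusted p = 0.0148). Between 4wk and 12wk, Pdgfra was at -0.72 ± 0.18 (SE, limma adjusted p = 0.0235) and Pdgfd at 0.54 ± 0.18 (SE, limma adjusted p = 0.0803). Without 4wk replicate 2, Pdgfc was called lower from 4wk to 12wk, at -1.19.

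The makeup of the ligand RNA pool was then compared within samples, which does not depend on how samples are scaled to each other. Pdgfa made up 50.2% to 60.3% of summed ligand FPKM in the embryo samples, 66.4% in both P5 samples and 49.4% to 65.0% in the adult samples. The share of Pdgfc was 36.0% to 37.6% at E14.5, 15.9% and 17.1% at P5, and 5.35% and 5.51% at 12wk, with 19.3% and 7.78% at 4wk. The share of Pdgfd was 2.40% to 7.84% in the 9 samples up to P5 and 23.8% to 26.9% in the 4 adult samples, so that it took the second place behind Pdgfa. Pdgfb had its highest sample at E16.5, where its shares were 11.1% and 14.8%, beside 11.3% and 12.9% at E18.5. It was lowest at 12wk, with 3.97% and 4.27%.

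**Figure D3:**
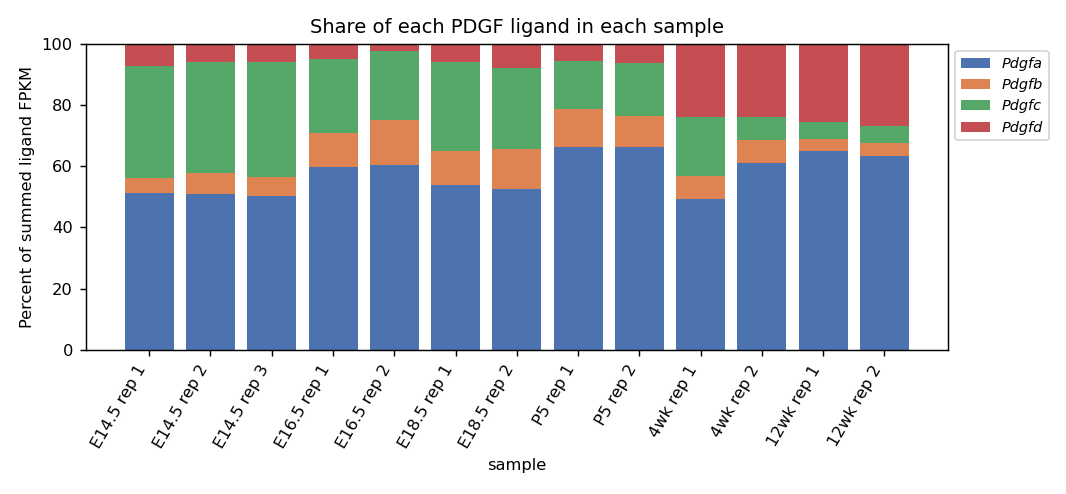
Share of each ligand in the summed FPKM of the 4 PDGF ligand genes, with 1 stacked bar per sample adding to 100%. The Pdgfc share shrinks from 36.0% or more at E14.5 to 5.51% or less at 12wk, and the Pdgfd share is at least 23.8% in the adult samples.

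The sum of the ligand FPKM was 64.2 to 110.1 in the embryo, 72.5 and 71.9 at P5, and 41.0 to 61.7 in the adult samples. The sum of the receptor FPKM was 38.3 to 106 in the embryo, 31.3 and 29.1 at P5, and 7.72 to 13.8 in the adult samples. The ratio of the first sum to the second was 0.897, 1.15 and 1.11 in the E14.5 samples, 1.89 and 1.88 in the E16.5 samples and 1.62 and 1.67 in the E18.5 samples. In the P5 samples it was 2.31 and 2.47, in the 4wk samples 3.36 and 2.97, and in the 12wk samples 7.31 and 6.97. Every postnatal sample was above every embryo sample in this ratio, and the 12wk samples were the highest.

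Embryo and adult samples were compared in 3 such ratios by a two-sided exact permutation test over the 7 embryo and 4 adult samples, with p-values adjusted over the 3 ratios. Samples of different ages within a stage were treated as replicates. The ratio of Pdgfa to Pdgfc, the ligands of receptor alpha, was 1.34 to 1.41 in the E14.5 samples, 2.44 and 2.68 in the E16.5 samples and 1.87 and 1.98 in the E18.5 samples. The P5 samples had ratios of 4.18 and 3.87, the 4wk samples 2.55 and 7.85, and the 12wk samples 12.1 and 11.5. Apart from 4wk replicate 1, all adult samples were above all embryo and P5 samples. The mean log2 ratio was 0.86 ± 0.41 (SD, n = 7) in the embryo and 2.86 ± 1.04 (SD, n = 4) in the adult, a difference of 2.01 (exact p = 0.00606, adjusted p = 0.00909).

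The ratio of Pdgfb to Pdgfd, the ligands of receptor beta, was 0.687, 1.18 and 1.09 in the E14.5 samples, 2.32 and 6.15 in the E16.5 samples and 1.87 and 1.65 in the E18.5 samples. The P5 samples had ratios of 2.25 and 1.58, the 4wk samples 0.308 and 0.312, and the 12wk samples 0.155 and 0.159. All adult samples were below all earlier ones. The mean log2 ratio went from 0.75 ± 1.01 (SD, n = 7) in the embryo to -2.18 ± 0.57 (SD, n = 4) in the adult, a difference of -2.94 (exact p = 0.00303, adjusted p = 0.00909). This p is the smallest that the 330 ways to label these samples can give.

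The ratio of Pdgfra to Pdgfrb was 3.07, 1.91 and 1.78 in the E14.5 samples, 1.99 and 1.45 in the E16.5 samples and 2.01 and 2.49 in the E18.5 samples. The P5 samples had ratios of 1.42 and 2.10, the 4wk samples 3.01 and 3.79, and the 12wk samples 2.37 and 3.08. The embryo and adult samples overlapped through E14.5 replicate 1 and E18.5 replicate 2. The mean log2 ratio was 1.03 ± 0.35 (SD, n = 7) in the embryo and 1.59 ± 0.28 (SD, n = 4) in the adult, a difference of 0.56 (exact p = 0.0303, adjusted p = 0.0303). This difference missed the threshold of 0.05 when any of 8 samples was left out. It was then 0.54 and 0.53 without E14.5 replicates 2 and 3, 0.55 and 0.48 without E16.5 replicates 1 and 2, 0.56 without E18.5 replicate 1, 0.56 and 0.45 without 4wk replicates 1 and 2, and 0.55 without 12wk replicate 2.

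**Figure D4:**
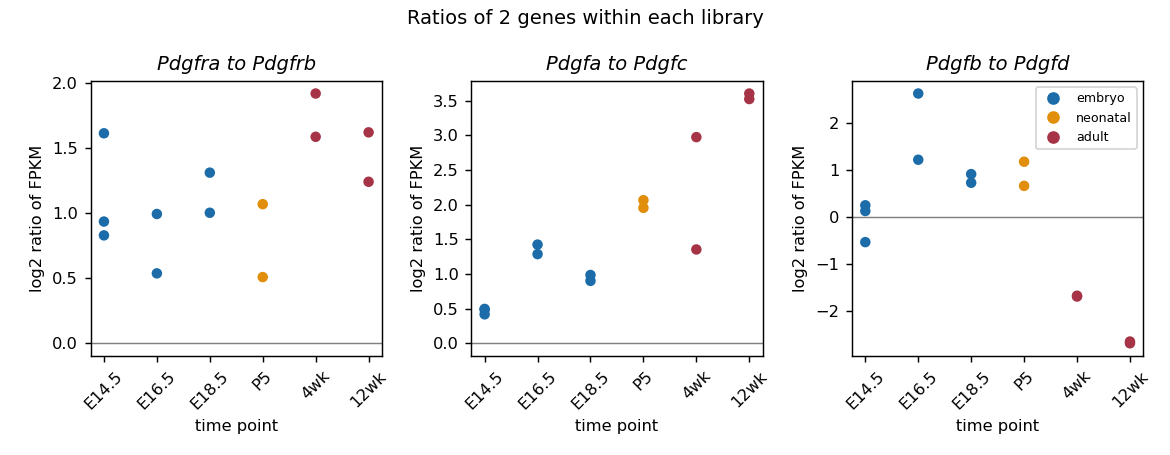
Log2 ratio of the FPKM of a pair of PDGF genes within each library, with 1 point per sample and colors for the stages. The Pdgfa to Pdgfc ratio is higher in adult samples than in most embryo samples, the Pdgfb to Pdgfd ratio is below 0 in all 4 adult samples, and the Pdgfra to Pdgfrb ranges overlap.

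Genes of the PDGF pathway were counted whole in the contrast of adult with embryo, where 38.0% of all tested genes were lower and 5.58% higher. After rescaling these shares were 14.7% and 13.8%. Of 7 proteases that process the ligands, 3 fell, and the median log2 change of the list was -0.39, which turned to 0.47 after rescaling. Plat, tissue plasminogen activator, which cleaves PDGF-C, fell by 3.13 ± 0.26 on the log2 scale, with means of 39.2 ± 13.1 FPKM in the 7 embryo samples and 3.59 ± 1.61 FPKM in the 4 adult samples (SD). The proprotein convertases Pcsk6 and Pcsk5 fell by 2.89 and 1.62. These 3 genes were also called after rescaling. Furin, the ubiquitous convertase, was at -0.28 ± 0.14 (SE, limma adjusted p = 0.0870), and Plau and St14, which can cleave PDGF-D, were at -0.33 and -0.22. Furin, Plau and St14 were at 0.63, 0.54 and 0.69 after rescaling, so their direction depended on the scale.

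All 7 binding proteins and coreceptors fell, and 5 of them were lower after rescaling, beside 14.7% of all genes, with list medians of -1.87 and -1.12. Nrp2, a neuropilin coreceptor, fell by 2.95 ± 0.46 on the log2 scale. Sparc, a matrix protein that binds PDGF-B, fell by 2.24 ± 0.38, with means of 549 ± 38.4 FPKM in the 7 embryo samples and 149 ± 108 FPKM in the 4 adult samples (SD). Its adult samples were apart by age, with 241 and 243 FPKM at 4wk and 65.8 and 45.2 FPKM at 12wk. Cspg4, the NG2 proteoglycan of pericytes, fell by 1.89 ± 0.20.

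Of 29 tested genes of the receptor signal relay, 12 fell, led by the Src family kinase Fyn at -2.46 ± 0.21, the phosphoinositide 3-kinase subunit Pik3r2 at -2.02 ± 0.19 and the phospholipase Plcg1 at -1.83 ± 0.18 (log2 change with SE). The list median was -0.89, close to that of all genes at -0.75, and -0.06 after rescaling. On rescaled FPKM 2 genes were lower and 2 higher, beside 14.7% and 13.8% of all genes, and Plcg1, at -0.99, was no longer called. Of 10 genes that turn receptor signals off, 7 fell, and 5 were lower after rescaling. They were led by the Sprouty genes, with Spry1 at -2.89 ± 0.14, Spry4 at -2.67 ± 0.25 and Spry2 at -2.21 ± 0.14, and their list median was -1.47, or -0.87 after rescaling. Of 10 tested early response genes, 6 fell, with the cyclin Ccnd1 at -2.56 ± 0.26, Egr1 at -2.05 ± 0.26 and Myc at -1.81 ± 0.33. After rescaling 2 of the early response genes were lower, Ccnd1 and Egr1, while Myc was at -0.95 and not called, and the list median was -0.59, against -1.31 before. These genes also answer to many other receptors.

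Other receptors of the same class III family did not share 1 direction. Of 7 receptor and ligand genes, 2 fell and 1 rose, and after rescaling 1 was lower and 4 were higher, beside 14.7% and 13.8% of all genes. Il34, a ligand of the macrophage receptor Csf1r, rose by 1.95 ± 0.35 on the log2 scale, and the stem cell factor Kitl and its receptor Kit fell by 2.18 ± 0.21 and 1.48 ± 0.20. After rescaling Il34 and Kitl were still called, and Kit was at -0.64 and not called. The list median was 0.38, or 1.104 after rescaling.

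Between P5 and 4wk, 5 of 7 binding proteins, 6 of 10 turn-off genes and 7 of 10 early response genes were called lower, beside 22.1% of all genes, and 0, 2 and 1 of them after rescaling, beside 8.72% of all genes. In the same contrast 2 of 7 proteases and 4 of 29 relay genes were lower, and 0 and 0 after rescaling.

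Marker lists were counted in the same contrast, where 38.0% of all genes were called lower and 5.58% higher, or 14.7% and 13.8% after rescaling. Of 10 fibroblast and mesenchyme markers 8 were called lower in adult than in embryo samples, and their summed FPKM was 1960 to 2712 in embryo, 1695 and 1868 in P5 and 262 to 534 in adult samples. Of 9 pericyte markers 7 were lower, with sums of 90.9 to 119 FPKM in embryo and 20.9 to 49.5 FPKM in adult samples. All 10 endothelial markers were lower, with sums of 149 to 185 FPKM in embryo and 31.3 to 57.6 FPKM in adult samples. After rescaling 7, 5 and 4 markers of these lists were lower. Levels of single markers in adult samples varied. Col1a1 was at 5.34 to 37.0 FPKM there, against 229 FPKM or more in embryo samples, and Rgs5 was at 5.68 FPKM or more. Twist2 and Cspg4 were at most 0.192 and 0.705 FPKM in adult samples. The pericyte marker Rgs5 was not called, at -0.06 ± 0.32 (SE, limma adjusted p = 0.864), or 0.79 after rescaling.

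Lists of other cell types differed in direction. Of 9 tested macrophage markers 1 was higher and 0 lower, with sums of 91.8 to 201 FPKM in embryo and 154 to 221 FPKM in adult samples, and 8 were higher after rescaling. Of 5 smooth muscle and myoepithelium markers 4 were higher, and of 10 epithelial markers 1 was lower, Krt19. After rescaling all 5 smooth muscle and myoepithelium markers were higher, and of the epithelial markers 1 was higher and 1 lower. Of 5 acinar markers 3 were higher and 0 lower. All 7 skeletal muscle markers were lower, with sums of 5.12 to 1127 FPKM in embryo and 1.28 to 28.7 FPKM in adult samples. The low embryo sums were those of E18.5, at 5.12 and 35.3 FPKM. All 7 were also called lower from E16.5 to E18.5, beside 1.85% of all genes. In 4wk replicate 2, 4 of them were listed at 0, and 3 or fewer in each other adult sample. Of 6 tested Schwann cell markers 0 were called and of 5 tested platelet and megakaryocyte markers 1 was lower, a list of interest because platelets carry PDGF-B. After rescaling 1 Schwann cell marker was higher and 0 platelet and megakaryocyte markers were called, and the acinar and skeletal muscle counts did not change. The part of any of these cell types in the member changes was not tested.

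Over the 13 samples, Pdgfc, Pdgfra and Pdgfrb followed each other closely, with a Pearson r of log2(FPKM + 1) of 0.96 to 0.97 between each pair, and 0.91 to 0.93 after rescaling. Pdgfd ran against them, with r between -0.80 and -0.69 before and between -0.87 and -0.69 after rescaling. Pdgfb and Pdgfd had an r of -0.98, or -0.76 after rescaling. The r of Pdgfa with each of the other 5 members changed sign after rescaling. These values are descriptions over samples that share age, depth and composition, and no p is given.

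The gene most like Pdgfra over the 13 samples was Fgf10, the mesenchymal growth factor for salivary epithelium, with an r of 0.994, and it kept the first place after rescaling, with an r of 0.985. The mean of Fgf10 was 20.8 FPKM at E14.5, 10.9 FPKM at E16.5, 8.92 FPKM at E18.5, 5.63 FPKM at P5, 2.50 FPKM at 4wk and 1.03 FPKM at 12wk. Next came Anxa6 and Lpar1 (r of 0.991 for both), of which Anxa6 dropped to an r of 0.795 after rescaling. In all, 1213 genes had an r above 0.95 with Pdgfra, 2178 with Pdgfrb and 1659 with Pdgfc, and 84, 438 and 249 genes after rescaling.

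Pdgfrb was most like Fgd5, Bcl11a and Sh3pxd2a (r of 0.996, 0.995 and 0.995), and these were also its first 3 after rescaling. Pdgfc was most like Agfg1, Brca1 and Twsg1 (r of 0.996, 0.995 and 0.995), and Agfg1 fell to place 128 after rescaling.

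Pdgfb was most like Tsc22d4, the hemidesmosomal collagen gene Col17a1 and Sun2 (r of 0.988, 0.987 and 0.983), with 23 genes above 0.95, or 1 after rescaling, and Col17a1 took the first place after rescaling with an r of 0.970. The mean of Col17a1 was 8.56 FPKM at E14.5, 21.4 FPKM at E16.5 and 2.76 FPKM at 12wk. Pdgfa was most like Plbd2, Ciz1 and Zfp628 (r of 0.977, 0.971 and 0.967), with 10 genes above 0.95, or 1 after rescaling. Pdgfd had 0 genes above 0.95 and was most like Sytl5 and the tissue kallikreins Klk1b22 and Klk1b16, each with an r of 0.949. After rescaling these were at places 14, 6 and 5, with an r of 0.974 to 0.979, and 106 genes were above 0.95. The kallikreins belong to a cluster of near-identical genes, and reads that did not map to a single place were not counted, so that their values are uncertain. The mean of Sytl5 was 0.429 FPKM at P5, 3.95 FPKM at 4wk and 8.01 FPKM at 12wk.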

How the data were processed

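The authors aligned single-end reads of 50 bases to UCSC mm9 with TopHat2 2.0.13 and Bowtie2 2.2.6, counted those mapping to a single place with featureCounts, and deposited the FPKM that DESeq2 1.10.1 gave. The study describes median normalization between samples, but median-of-ratios factors, taken on the FPKM themselves, ran from 0.617 to 1.38, so each sample was also divided by its factor ("rescaled"). Counts were not used here. Gene lengths and reads per value were recovered from FPKM steps (99.99% of 14213 gene lengths were whole within 0.05 bases).

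The 14650 genes that reached 1 FPKM somewhere entered the tests as log2(FPKM + 1), a scale that understates changes of low genes. limma 3.58.1 (R 4.3.3) with a mean-variance trend was fitted to all 13 samples, by stage and by time point, with Benjamini-Hochberg adjustment over all of them. Calls needed an adjusted p below 0.1 and a log2 change past 1 in either direction. Exact permutation tests went through every way to label the samples, in Python 3.11.15 with numpy 2.4.6. The fit was tested on simulated data. P-values measure the spread between these samples. In the stage contrasts and ratio tests this spread includes differences between ages, since samples of different ages within a stage were treated as replicates.

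The members were chosen by gene symbol and not by their values. Earlier results of these data were known when the members and lists were chosen. Named genes were the members, the 3 genes most correlated with each, and the 2 to 4 largest called changes of each list, with the remaining markers and Furin, Plau and St14 named after their values were seen. Positions are from GENCODE on mm9, and promoters from RefSeq on GRCm38.p6.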

Additional observations from a re-analysis of the deposited data

Results flagged for a closer look

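Pdgfc in the adult group had 1 sample far from the others, 4wk replicate 1 at 8.42 FPKM, while the other 3 adult samples were between 2.96 and 3.30 FPKM. The gap was 0.906 of the range of the adult samples. Of 18 groups examined this was the only one, and chance alone would mark about 1 in 20 groups.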

How the results depend on the processing

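The adult and embryo stages differed in 5 called members when any sample was left out and under every other alternative tried on deposited FPKM, and in 4 under each alternative with median-of-ratios rescaling. Under that rescaling 0 members were called between embryo and P5, 2 between P5 and adult, 0 between E14.5 and E16.5 and 2 between P5 and 4wk. The same rescaling without E14.5 replicate 1 gave 0, 2, 0 and 2. Without both 4wk samples, an alternative chosen after seeing the data like every other combined with rescaling, it gave 0, 3 and 0, and no value for 4wk. Time points averaged with equal weight gave 1 called member between embryo and P5. The direction reversed under rescaling for Pdgfa from embryo to adult (0.25 on the log2 scale, 0.25 without E14.5 replicate 1 and 0.59 without both 4wk samples), for Pdgfa from P5 to adult (0.31 without both 4wk samples), for Pdgfb from embryo to P5 (0.22, 0.10 and 0.22 in the same order), for Pdgfd from embryo to P5 (0.073, 0.13 and 0.073) and for Pdgfb from E18.5 to P5 (0.085, 0.085 and 0.085). The cause was not tested, but none of these changes passed the thresholds on either scale.

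With each sample left out in turn, 0 to 2 members were called between embryo and P5, 4 to 5 between P5 and adult, 0 to 1 between E14.5 and E16.5, 3 to 5 between P5 and 4wk and 0 to 1 between 4wk and 12wk. Small changes crossed 0, with -0.058 to 0.10 for Pdgfa and -0.14 to 0.14 for Pdgfb from embryo to P5, and -0.19 to 0.077 for Pdgfb and -0.44 to 0.0045 for Pdgfrb from E18.5 to P5. The difference in the log2 ratio of Pdgfra to Pdgfrb between adult and embryo ran from 0.45 to 0.68, that of Pdgfa to Pdgfc from 1.76 to 2.51, and that of Pdgfb to Pdgfd from -3.15 to -2.63. The difference for Pdgfra to Pdgfrb was 0.30 with a pseudocount of 1 (adjusted exact p = 0.155), 0.29 with the P5 samples joined to the adult samples (adjusted exact p = 0.237) and 0.40 without both 4wk samples (adjusted exact p = 0.222), and then missed the threshold. The other 2 ratios passed it under all alternatives run.

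The labels do not pair samples across ages by replicate number. Deviations from the time point means correlated at -0.0158 on average over 30 pairs with the same number and at 0.0118 over 40 pairs with different numbers. With a pair of samples at most ages, the deviations of its members mirror each other. These averages therefore do not decide whether some samples were paired. With the replicate number as a block, 1 member in place of 2 was called between embryo and P5, and no other member call changed. Rescaling with this block gave 0 members between embryo and P5, 2 between P5 and adult and 2 between P5 and 4wk, and it reversed Pdgfa from embryo to adult (0.25), Pdgfb and Pdgfd from embryo to P5 (0.15 and 0.10) and Pdgfb from E18.5 to P5 (0.085).

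Depth limits the 4wk values most, where the members had 55 to 585 reads each. With 2 samples at most ages, calls near the fold threshold rest on single libraries.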
